A study of Avena sativa with 108 samples.

Results

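The photosynthesis genes of oat (Avena sativa) were taken as the gene models whose UniProt description names a chlorophyll a-b binding protein, photosystem I or photosystem II, an oxygen-evolving enhancer protein, or the small subunit of ribulose bisphosphate carboxylase (Rubisco). The words were matched in either case. The rule itself uses no expression value, but it was set with earlier results of these data known. They picked 209 of 68572 gene models, of which 51071 carried a description. By description the 209 genes comprised 26 for the Rubisco small subunit, 59 for chlorophyll a-b binding proteins, 21 for photosystem I antenna proteins, 26 for the photosystem I core, 19 for the photosystem II core, 9 for the oxygen-evolving complex and 8 for other photosystem proteins, mostly assembly and repair factors. The remaining 41 matched subunits that land plants encode in the plastid genome and are called plastid-encoded type here, and the other 168 are called nuclear type. Oat is hexaploid, and 67 of the genes lay on chromosomes of the A subgenome, 58 on C, 63 on D and 21 on unplaced scaffolds.

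RNA was sequenced from 2 spring cultivars, CDC Morrison and AC Morgan, in 2 experiments with 3 libraries a group. The first covered the whole developing grain, stripped of its glumes, at 5, 10, 15, 20, 25, 30, 35 and 40 days postemergence of the panicle (DPE), where each library pooled 10 grains of a single panicle. The second covered embryo and endosperm dissected from grain kept on damp paper for 0 (dry), 3, 6, 24 and 48 h. No line was mutant or transgenic, and the labels name no agent as a treatment. Per the study's methods, the seeds of its plants were treated with a fungicide before planting. Grain at 30 to 40 DPE is called late grain here, and grain at 5 to 15 DPE early grain. A whole grain holds maternal pericarp, endosperm and embryo together, so fewer green cells and less RNA per green cell cannot be told apart in these libraries.

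In green tissue, light is caught by chlorophyll held in antenna proteins and passed to the cores of photosystem II and photosystem I, which drive electrons from water to NADPH. The oxygen-evolving complex is bound to photosystem II and splits the water. Rubisco then fixes carbon dioxide, with a large subunit encoded in the plastid and a small subunit encoded in the nucleus. In cereals the young pericarp around the endosperm contains a green layer of cells that carries out photosynthesis and is lost as the grain ripens, and the embryo gives rise to the shoot that greens after germination.

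The estimated counts summed to between 11235846 and 30846412 in 47 grain libraries and to between 3895703 and 39871377 in the 60 germination libraries. Replicate 1 of CDC Morrison at 10 DPE summed to 2184611, was absent from the authors' normalized table and was left out of the fits, so this group has 2 libraries. Of the 209 genes, 193 had enough counts to be tested in grain and 185 in germinating grain. Levels are given as CPM, counts scaled to a fixed library total after TMM normalization of library sizes, so they are shares of the sequenced RNA and are not corrected for gene length. They were therefore compared between groups and not between genes. The A, C and D copies of a gene can be nearly identical, and reads may have been split between them. Genes of plastid-encoded type may be copies inserted in nuclear chromosomes or may collect reads from the plastid genome, and the files do not tell these apart.

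Some libraries stood apart from the others of their group before any test was run. In CDC Morrison embryo at 48 h the members summed to 389 CPM in replicate 1, against 1876 and 2256 CPM in replicates 2 and 3. In AC Morgan embryo at 6 h they summed to 137 CPM in replicate 2, against 50 and 67 CPM in the others. The plastid-encoded sum was far above its group in other libraries, at 5425 CPM in replicate 2 of CDC Morrison endosperm at 0 h, where the other replicates had 34.4 and 36.6 CPM, and at 714 CPM in replicate 1 of AC Morgan grain at 5 DPE. Starch and storage-protein genes of the endosperm, from a list of 58 tested genes, summed to group means of 237 to 828 CPM at 5 and 10 DPE and of 418898 to 822861 CPM at 15 and 20 DPE. Of these genes 49 were higher and 6 lower in late than in early grain, whereas 9 of 33 embryo marker genes and 12 of 26 aleurone marker genes were higher and 15 and 8 lower. The sum of the photosynthesis genes was thus measured against a pool of RNA whose make-up changed greatly over the same days, and the part of this in the results was not tested.

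Nuclear-type photosynthesis RNA was highest within 5 to 20 DPE and nearly gone from ripe grain in both cultivars, with an early peak in CDC Morrison only. In CDC Morrison the 168 nuclear-type genes together averaged 696, 5363, 861, 377, 169, 22.4, 21.1 and 20.0 CPM at 5, 10, 15, 20, 25, 30, 35 and 40 DPE. In AC Morgan they averaged 1033, 1069, 875, 1055, 447, 163, 23.9 and 23.5 CPM at the same times. CDC Morrison thus had a sharp maximum at 10 DPE, with 4994 and 5733 CPM in the 2 libraries used. AC Morgan held a plateau from 5 to 20 DPE, with 1387, 581 and 1238 CPM at 10 DPE. The height of the maximum rests on those 2 libraries of CDC Morrison. Its replicate 1, left out of the fits, gave all members 0.284% of its counts, against 0.709% and 0.785% in replicates 2 and 3. That share was 0.0471 to 0.160% in CDC Morrison at 5 and 15 DPE, and 0.244%, 0.0994% and 0.221% in AC Morgan at 10 DPE. The highest group mean was 268 times that at 40 DPE in CDC Morrison and 45.5 times in AC Morgan. The plastid-encoded type summed to 78.1 ± 6.69 CPM at 10 DPE and 37.7 ± 2.39 CPM at 40 DPE in CDC Morrison (SD, n = 2 and 3). In AC Morgan it summed to 714, 41.1 and 81.4 CPM at 5 DPE, where the mean of 279 CPM rested on replicate 1, and to 32.4 ± 2.06 CPM at 40 DPE (SD, n = 3).

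**Figure D1:**
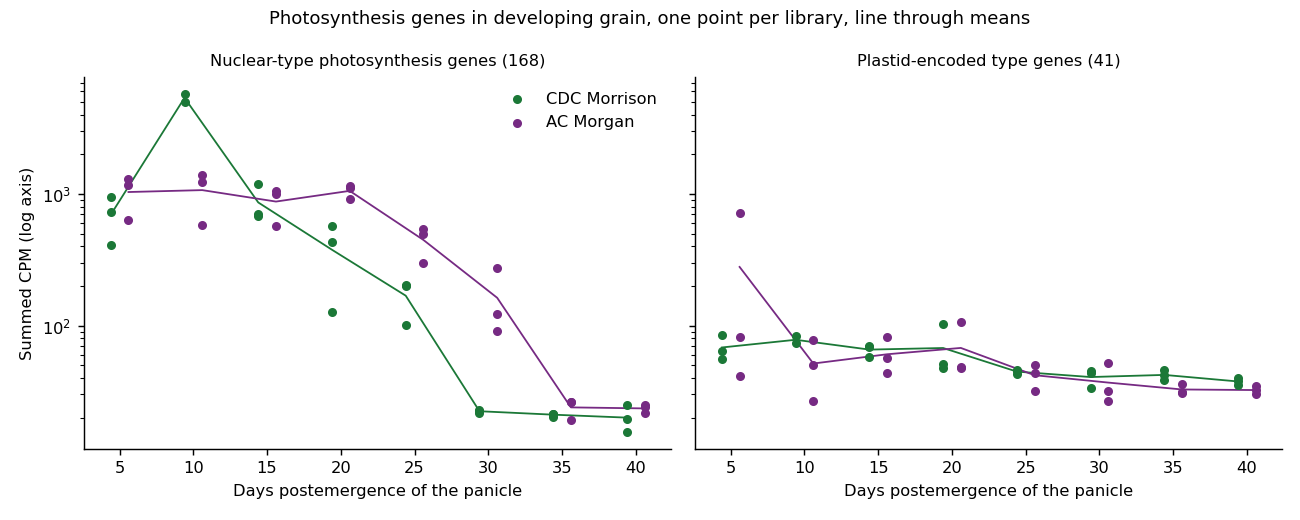
Sum of TMM-normalised CPM over the nuclear-type and the plastid-encoded type photosynthesis genes in each grain library (points, log axis) against days postemergence of the panicle, with lines through the group means of CDC Morrison and AC Morgan. Nuclear-type sums reach 4994 and 5733 CPM in CDC Morrison at 10 DPE and lie between 15.6 and 26.5 CPM in all 12 libraries at 35 and 40 DPE.

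The single genes followed the sums. Among members that reached 1 CPM in some group, 148 of 166 had their highest mean at 10 DPE in CDC Morrison, while in AC Morgan 75 of 157 did at 5 DPE, 35 at 10 DPE and 32 at 20 DPE. At 35 and 40 DPE, 68 of the 209 genes had no count in any of 12 libraries, 64 of them nuclear type, including 34 of the 59 chlorophyll a-b binding protein genes and 11 of the 26 Rubisco small subunit genes. At 5 and 10 DPE only 5 genes had no count in any of 11 libraries, 1 of them nuclear type.

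Between late and early grain, 162 of the 193 tested genes changed, 6 higher and 156 lower in late grain (edgeR quasi-likelihood test, Benjamini-Hochberg adjusted p under 0.05 over all 62030 genes tested). Most of the transcriptome changed as well, with 76.8% of all tested genes called, 35.8% higher and 41.0% lower in late grain. The share of members that were lower was thus above the background, whereas a call in itself was common. The median log2 difference, late minus early, was -6.41 over the members and -0.12 over all genes. Because 139 members had no count in at least 1 group, the fitted values are partly unbounded, and with those groups set to a floor of 3 counts over the group the medians were -4.81 and -0.10. A gene that passed the filter on counts only through early grain had to differ. The calls were as one-sided within each cultivar, with 5 higher and 157 lower in late CDC Morrison grain, where 72.4% of all genes were called (33.7% higher, 38.8% lower), and 7 higher and 163 lower in late AC Morgan grain, where 69.7% were (32.8% higher, 36.9% lower).

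Rubisco small subunit genes fell in late grain in 21 of 25 tested cases, and none rose. Their summed level lay between 1.30 and 36.9 CPM in 18 late libraries (median 2.90), against 58.0 to 1322 CPM in 17 early libraries (median 164). The late and early ranges did not overlap. Gene 4Dg0000136 had 0 to 7.89 CPM in late grain (median 0.0492) and 7.30 to 221 CPM in early grain (median 33.0), so the ranges met only at their ends. The highest late value was in AC Morgan at 30 DPE, where the libraries had 7.89, 1.75 and 1.69 CPM, while CDC Morrison at the same time had 0.0561, 0.0539 and 0.212 CPM. With the empty group at the floor, 4Dg0000136 was lower in late grain by at least 8.66 on the log2 scale (edgeR adjusted p = 6.75e-20).

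The chlorophyll a-b binding proteins, which form most of the antenna of photosystem II, had 41 of 51 tested genes lower in late grain and 2 higher. In sum they lay between 3.99 and 65.8 CPM in late grain (median 5.16), against 120 to 1902 CPM in early grain (median 256). Gene 5Ag0003164, annotated as chlorophyll a-b binding protein 1, had 0 to 5.03 CPM in late libraries with a median of 0, and 12.9 to 215 CPM in early libraries with a median of 27.7. It was lower in late grain by at least 9.05 on the log2 scale (edgeR adjusted p = 6.46e-19). The 2 genes that rose, both annotated as chlorophyll a-b binding protein 7, also went against the rest in the embryo and are given with it.

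All 21 genes for the antenna of photosystem I fell. Their sum was 2.59 to 52.4 CPM in late grain (median 4.01) and 50.1 to 662 CPM in early grain (median 118). Gene 6Dg0000018, for chlorophyll a-b binding protein 8 of this antenna, had 0.259 to 6.11 CPM in late grain (median 1.10) and 7.43 to 51.6 CPM in early grain (median 14.3). No late library was at 0 and the ranges did not overlap. Its log2 difference was -3.64 ± 0.16 (SE, edgeR adjusted p = 3.40e-21), against a median of -7.30 over the 21 genes and of -7.19 over the chlorophyll a-b binding proteins. This gene thus kept more of its early level than most antenna genes, a contrast between genes for which no test was run.

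All 26 core genes of photosystem I and 17 of 18 tested core genes of photosystem II fell, and none rose. The core sums were 0.796 to 32.4 CPM in late grain against 62.0 to 737 CPM in early grain for photosystem I, and 0.551 to 28.3 CPM against 42.9 to 405 CPM for photosystem II. Neither pair of ranges overlapped. Gene 4Ag0001680, for subunit III (PsaF), where plastocyanin docks, had 0 to 2.60 CPM in late grain and 3.30 to 41.7 CPM in early grain, a log2 difference of -4.75 ± 0.20 (SE, edgeR adjusted p = 1.28e-21). For gene 7Dg0001531, of the 10 kDa polypeptide of photosystem II (PsbR), the log2 difference was -7.71 ± 0.28 (SE, edgeR adjusted p = 2.38e-23).

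The oxygen-evolving complex was lost most completely of the 8 groups in these libraries. All 9 genes fell, with a median log2 difference of -8.36, or -7.80 with empty groups at the floor. Their sum ranged from 0 to 50.6 CPM in late grain (median 0.240), against 56.1 to 700 CPM in early grain (median 170). At 40 DPE the mean sum was 0.220 CPM in CDC Morrison, 0.0334% of the mean of 659 CPM at 10 DPE, and 0.212 CPM in AC Morgan, 0.116% of the highest mean of 184 CPM at 20 DPE. By the same measure 0.209% of the Rubisco small subunit, 0.265% of the chlorophyll a-b binding proteins, 0.521% of the photosystem I antenna and 11.7% of the other photosystem proteins were left in CDC Morrison. For oxygen-evolving enhancer protein 1 (PsbO), which stabilises the manganese cluster, gene 2Ag0000629 had 0 to 13.1 CPM in late grain and 9.71 to 136 CPM in early grain.

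Assembly factors and plastid-encoded type genes had the smallest median differences of the 8 groups in grain. Of the 8 other photosystem proteins 7 fell, with a median log2 difference of -2.50. HCF136, an assembly factor of photosystem II, had 0.954 to 2.57 CPM in late grain and 2.33 to 16.4 CPM in early grain at gene 6Cg0000008, a log2 difference of -1.82 ± 0.10 (SE, edgeR adjusted p = 6.92e-19). The exception was gene 7Dg0000923, for photosystem I assembly protein PSA2, with 1.62 to 4.94 CPM in late grain and 0.849 to 3.10 CPM in early grain. It rose by a log2 difference of 0.78 ± 0.12 (SE, edgeR adjusted p = 1.97e-07), although the ranges overlapped. Of 35 tested plastid-encoded type genes 14 fell and 3 rose, with a median of -1.35, against 41.0% of all genes lower and 35.8% higher, so the share that fell was close to the background.

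**Figure D2:**
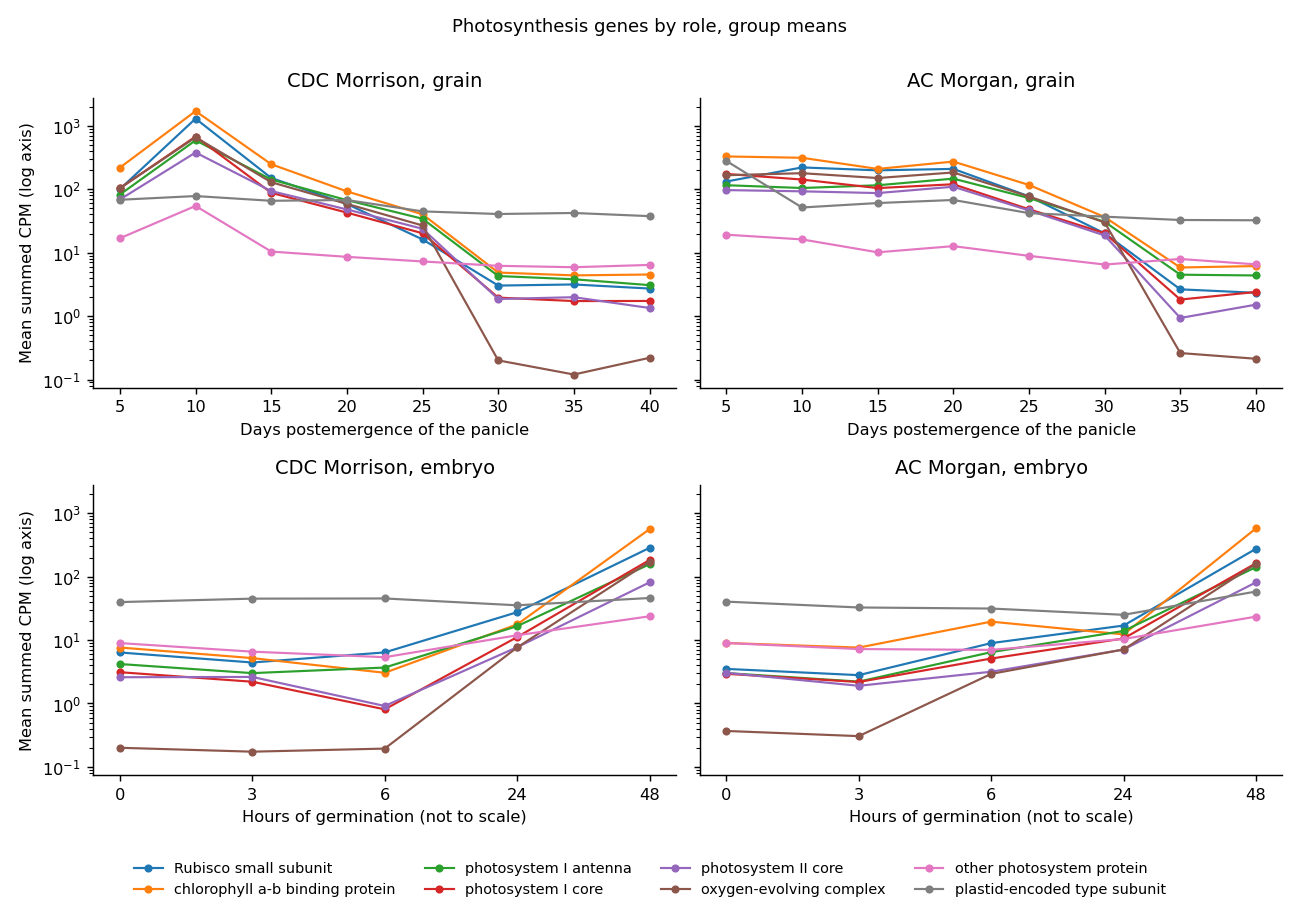
Mean summed CPM (log axis) of each functional group of photosynthesis genes against days postemergence in grain (upper panels) and against hours on damp paper in embryo (lower panels, hours not to scale), for CDC Morrison (left) and AC Morgan (right). The oxygen-evolving complex of CDC Morrison has a mean of 0.220 CPM at 40 DPE and 659 CPM at 10 DPE, and of 172 CPM in 48 h and 0.20 CPM in 0 h embryo, and the plastid-encoded type stays between 35.3 and 46.0 CPM throughout the embryo series of that cultivar.

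The loss did not run evenly through the 8 time points. From 5 to 10 DPE, averaged over the cultivars, 98 members rose and 3 fell, against 14.7% of all genes called, 7.21% higher and 7.50% lower. Without replicate 3 of CDC Morrison at 10 DPE, which leaves that group 1 library assumed to vary like the others, 60 rose and 1 fell. Between 15 and 10 DPE 122 were lower and 3 higher at 15 DPE, against a background of 38.1% called, 18.1% higher and 20.0% lower. The scale matters at this step, since library-size scaling without TMM moved the median of all genes by -1.06 on the log2 scale. Between 20 and 15 DPE no member was called by edgeR, where 0.908% of all genes were, 15 had an unadjusted p under 0.05, and DESeq2 called 4. Leaving out replicate 2 of CDC Morrison at 20 DPE gave 7 calls, and leaving out replicate 1 of CDC Morrison at 15 or 20 DPE or of AC Morgan at 20 DPE gave 1.

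A further decline came in the following 10 days. At 25 against 20 DPE 75 members were lower and 2 higher (20.0% of all genes called, 10.1% higher and 9.86% lower), and at 30 against 25 DPE 107 were lower and 4 higher (31.3% called, 15.7% higher and 15.6% lower). The median log2 differences of the members were -1.19 and -2.57. The count at 25 against 20 DPE rested on single libraries, at 30 without replicate 2 of CDC Morrison at 20 DPE, 40 without replicate 3 of CDC Morrison at 25 DPE and 48 without replicate 3 of AC Morgan at 25 DPE, against 77 with all. At 35 against 30 DPE 17 members were lower and 3 higher (31.0% called, 12.7% higher and 18.3% lower). At this step 125 members had a group with no count, and for 78 the standard error was above 10 on the log2 scale. Without replicate 3 of CDC Morrison at 30 DPE 10 were called, while DESeq2 called 65 and limma on the normalized values 66. Between 40 and 35 DPE no member was called by edgeR, 4 had an unadjusted p under 0.05 and DESeq2 called 1, where 0.00645% of all genes were called.

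The cultivars differed most at 10 DPE and from 20 to 30 DPE, and little at 35 and 40 DPE. At 10 DPE 119 members were higher and 3 lower in CDC Morrison than in AC Morgan, against 25.7% of all genes called, 14.5% higher and 11.2% lower. At 20 DPE 60 were lower and 3 higher (13.4% called, 6.86% higher and 6.53% lower), at 25 DPE 29 lower and 2 higher (9.64% called, 4.40% higher and 5.24% lower), and at 30 DPE 91 lower and 4 higher (36.2% called, 17.0% higher and 19.2% lower). At the other times few members differed, with 3 higher and 7 lower at 5 DPE (9.65% called, 4.74% higher and 4.91% lower), and 4 and 3 at 15 DPE (9.41%, 4.24% and 5.16%). At 35 DPE 3 members were higher and 1 lower (12.7%, 5.65% and 7.01%), and at 40 DPE 2 and 2 (12.9%, 5.73% and 7.14%). At 15 DPE the split depended on the scaling, with 27.3% of the calls higher by library size alone and 57.1% with TMM. Single libraries also moved these counts. Against 63 calls at 20 DPE there were 16 without replicate 3 of CDC Morrison, 41 without its replicate 1, and 37 and 39 without replicates 1 and 2 of AC Morgan. Against 31 calls at 25 DPE there were 13 without replicate 3 of CDC Morrison and as many without replicate 1 of AC Morgan. Against 10 calls at 5 DPE there were 6 without replicate 1 or 3 of CDC Morrison, against 4 at 35 DPE 2 without replicate 2 of CDC Morrison or replicate 1 of AC Morgan, and against 4 at 40 DPE 2 without replicate 1 of AC Morgan. The mean nuclear-type sum of CDC Morrison was 5.02 times that of AC Morgan at 10 DPE, and 0.357, 0.377 and 0.138 times at 20, 25 and 30 DPE. At 30 DPE the sums were 21.7, 23.0 and 22.5 CPM in CDC Morrison and 274, 91.0 and 123 CPM in AC Morgan, and without replicate 1 of AC Morgan the ratio was 0.209.

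**Figure D3:**
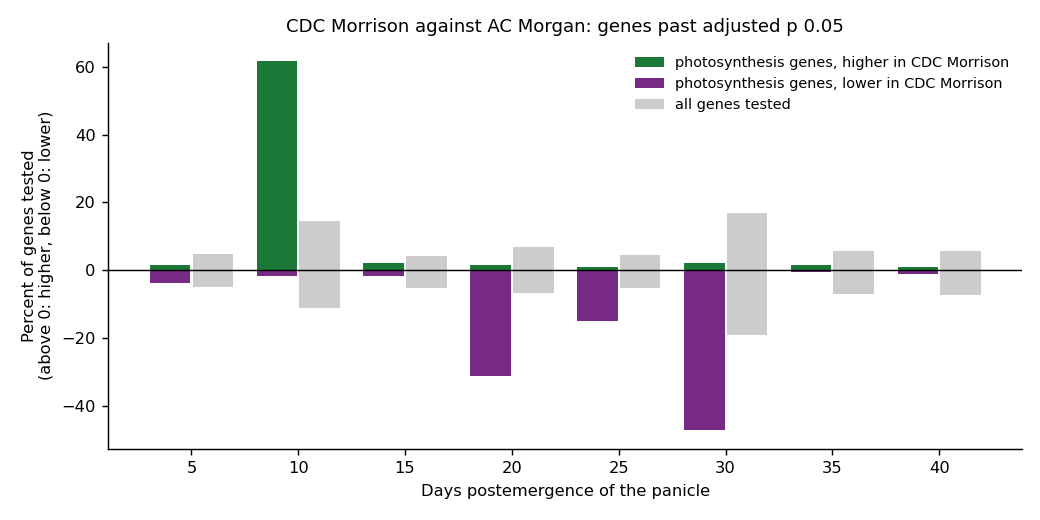
Percent of tested genes called higher (above 0) or lower (below 0) in CDC Morrison than in AC Morgan at each sampling time, by edgeR at an adjusted p under 0.05, for the 193 tested photosynthesis genes (coloured bars) and for all 62030 genes tested (grey bars). The coloured bars stand far above the grey at 10 DPE, where 119 photosynthesis genes were higher, and far below it at 30 DPE, where 91 were lower.

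In 6 of the 8 functional groups many genes were higher in CDC Morrison at 10 DPE and many lower at 30 DPE. At 10 DPE the genes higher in CDC Morrison comprised 18 Rubisco small subunit genes, 36 chlorophyll a-b binding protein genes, 17 photosystem I antenna genes, 24 photosystem I core genes, 12 photosystem II core genes and 8 oxygen-evolving complex genes. At 30 DPE those lower in CDC Morrison comprised 11, 22, 16, 21, 9 and 9 genes of the same groups. Of the 8 other photosystem proteins 2 were higher at 10 DPE and 1 was lower at 30 DPE, against 14.5% and 19.2% of all genes. Gene 5Ag0003164, for chlorophyll a-b binding protein 1, had 168 and 215 CPM in CDC Morrison at 10 DPE against 38.9, 15.7 and 32.3 CPM in AC Morgan. At 30 DPE it had 0.0561, 0 and 0 CPM in CDC Morrison against 5.03, 0.775 and 1.90 CPM in AC Morgan. The log2 differences were 2.73 ± 0.62 (SE, edgeR adjusted p = 1.21e-03) at 10 DPE and -6.94 ± 1.27 (SE, edgeR adjusted p = 8.76e-05) at 30 DPE. Replicate 1 of CDC Morrison at 10 DPE, outside the fits, gave the members 0.284% of its counts, against 0.709% and 0.785% in replicates 2 and 3 and 0.244%, 0.0994% and 0.221% in AC Morgan.

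Averaged over the 8 times, 5 members were higher and 24 lower in CDC Morrison, against 34.6% of all genes called, 16.9% higher and 17.7% lower. The difference between cultivars in late minus early was called for 16 members, 2 higher and 14 lower in CDC Morrison, against 14.2% of all genes, 6.08% higher and 8.13% lower. This count is limited by empty groups, since 139 of 193 members had no count in at least 1 group of the contrast. The standard error was at most 10 on the log2 scale for 77 members. Gene 5Dg0003142, for a Rubisco small subunit, had the largest such difference among members with counts in all groups, at -3.61 ± 0.89 on the log2 scale (SE, edgeR adjusted p = 4.80e-03). This call rested on replicate 3 of AC Morgan at 40 DPE, without which it was -2.74 (adjusted p = 0.354 by edgeR), and over all its alternatives the adjusted p ran between 1.98e-05 and 0.354. The gene had 124 and 139 CPM in CDC Morrison at 10 DPE, against 16.6, 5.39 and 13.5 CPM in AC Morgan.

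Of the 3 genes for oxygen-evolving enhancer protein 1, the C copy did not share the cultivar pattern of the A and D copies. At 10 DPE the A copy, 2Ag0000629, exceeded AC Morgan in CDC Morrison grain by a log2 difference of 2.01 ± 0.52 (SE, edgeR adjusted p = 4.61e-03) and the D copy, 2Dg0003165, by 2.19 ± 0.50 (SE, edgeR adjusted p = 9.15e-04). The C copy, 2Cg0001318, had 23.4 and 28.7 CPM in CDC Morrison, against 42.1, 11.04 and 28.1 CPM in AC Morgan, a log2 difference of -0.05 ± 0.60 (SE, edgeR adjusted p = 0.978). It held 0 to 9.15% of the sum of the 3 genes in 14 CDC Morrison grain libraries with a sum of at least 1 CPM (median 4.72%), against 25.9 to 34.5% in 18 AC Morgan grain libraries (median 28.6%). These ranges did not overlap. In 48 h embryo the share was 16.8%, 17.7% and 18.02% in CDC Morrison and 29.5%, 26.0% and 27.7% in AC Morgan. At 48 h the embryo values of CDC Morrison thus lay between its own grain and AC Morgan. Earlier embryo libraries that reached 1 CPM had sums of only 1.27 to 2.85 CPM and did not show this. At 24 h the share was 3.85% and 1.79% in CDC Morrison and 12.5%, 23.5% and 22.2% in AC Morgan, and at 6 h 15.7% in replicate 2 of AC Morgan.

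Cultivar contrasts were also seen in genes of plastid-encoded type. Gene 1Ag0002193, whose description is photosystem I apoprotein A2 from a green alga, had 3.69 to 18.7 CPM in all 23 CDC Morrison grain libraries and 0 to 0.749 CPM in 24 AC Morgan libraries. It was higher in CDC Morrison over the 8 times by at least 6.36 on the log2 scale (edgeR adjusted p = 1.79e-19). Gene 7Ag0002293, for apoprotein A1, showed the opposite, with 0 CPM in all CDC Morrison libraries but 1, which had 0.0564 CPM, and 0.285 to 3.31 CPM in AC Morgan. Both contrasts held across ages in which the nuclear-type genes changed greatly.

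In germinating grain the genes came back in the embryo between 24 and 48 h. The nuclear-type sum averaged 33.1, 24.2, 20.4, 100 and 1461 CPM in CDC Morrison embryo at 0, 3, 6, 24 and 48 h, and 30.8, 24.2, 53.1, 78.3 and 1419 CPM in AC Morgan embryo. The AC Morgan mean at 6 h rested on replicate 2, where all members summed to 137 CPM, against 49.7 and 66.9 CPM in replicates 1 and 3. The mean at 48 h was 44.2 times that at 0 h in CDC Morrison and 46.0 times in AC Morgan. In endosperm the sum averaged 19.5, 25.4, 17.6, 15.9 and 20.2 CPM in CDC Morrison, against 24.2, 19.5, 19.5, 15.2 and 31.8 CPM in AC Morgan. The 48 h embryo thus exceeded the 48 h endosperm 72.2 times in CDC Morrison and 44.7 times in AC Morgan.

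**Figure D4:**
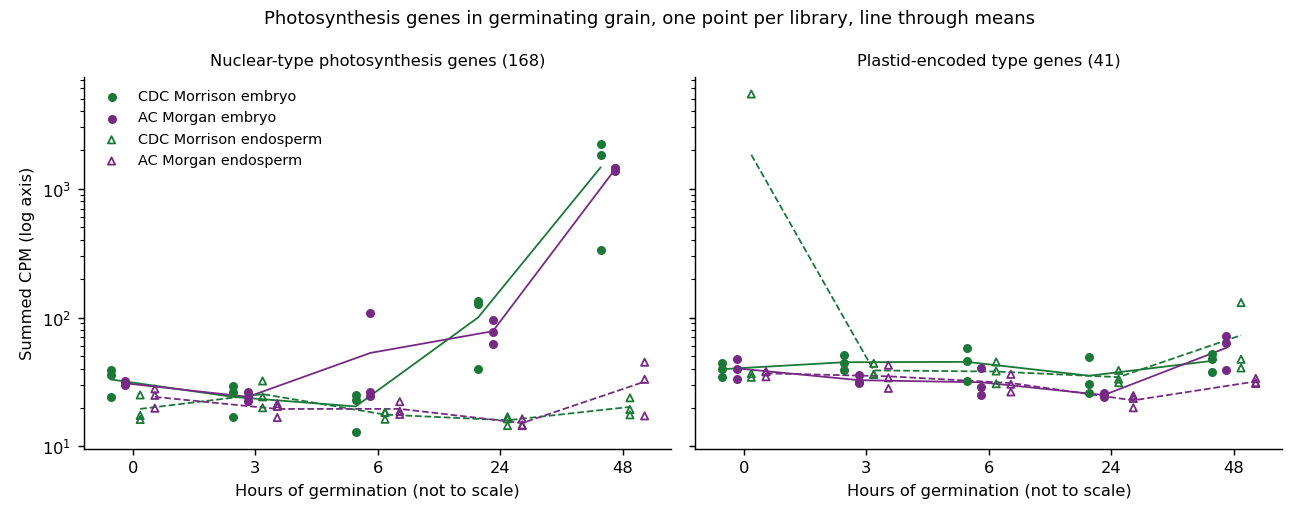
Sum of TMM-normalised CPM over the nuclear-type and the plastid-encoded type photosynthesis genes in each embryo and endosperm library (points, log axis) against hours on damp paper, with lines through group means. Nuclear-type sums reach 337 to 2218 CPM in 48 h embryo and stay between 14.5 and 45.0 CPM in endosperm at 24 and 48 h.

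Between 48 h and 0 h embryo 161 of 185 tested genes were called, 156 higher and 5 lower at 48 h, against 67.9% of all 62447 genes tested, 40.2% higher and 27.7% lower. The median log2 difference was 7.01 over the members and 0.31 over all genes, or 5.22 and 0.25 with empty groups at the floor. Of the members 119 had no count in at least 1 of these groups. A gene that passed the filter on counts only through 48 h embryo had to differ. The number of genes with no count in any of 6 libraries was 97 at 0 h and 14 at 48 h, and 1 of those 14 was nuclear type. Without replicate 1 of CDC Morrison at 48 h, whose members were low, 159 were called, 155 higher and 4 lower. DESeq2 called 100, of which 96 were higher.

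The embryo steps showed when the change took place. Between 3 and 0 h no member was called by edgeR, where 11.5% of all genes were, 3 had an unadjusted p under 0.05 and DESeq2 called none. Leaving out replicate 1 of CDC Morrison at 0 h or of AC Morgan at 3 h gave 1 call. Between 6 and 3 h 2 members were higher and 2 lower (19.9% of all genes called, 8.80% higher and 11.1% lower). Against these 4 calls there were 8 without replicate 3 of AC Morgan at 6 h, and 2 without its replicate 2 or without replicate 2 or 3 of AC Morgan at 3 h. At 24 against 6 h 59 were higher and 3 lower (54.6% called, 29.7% higher and 24.9% lower), and at 48 against 24 h 153 were higher and none lower (25.0% called, 15.2% higher and 9.79% lower). DESeq2 called 62 at this last step, all of them higher. The median log2 difference at 48 against 24 h was 4.77 over the members, or 4.13 with empty groups at the floor.

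Every functional group of the nuclear type took part. All 23 tested Rubisco small subunit genes rose, as did 48 of 51 chlorophyll a-b binding protein genes, all 21 photosystem I antenna genes, all 26 photosystem I core genes, 16 of 17 photosystem II core genes, all 9 oxygen-evolving complex genes and 7 of 8 other photosystem proteins. Rubisco gene 4Dg0000136 had 16.5, 66.0 and 66.9 CPM in CDC Morrison embryo and 53.9, 53.9 and 54.8 CPM in AC Morgan embryo at 48 h, against 0 to 0.796 CPM in the 6 embryo libraries at 0 h. Its log2 difference was 7.70 ± 0.57 (SE, edgeR adjusted p = 1.28e-13). Chlorophyll a-b binding protein 1 gene 5Ag0003164 had 9.496 to 116 CPM at 48 h (median 69.1) and at most 0.0666 CPM at 0 h, and was higher by at least 10.40 on the log2 scale (edgeR adjusted p = 6.04e-11). The 48 h and 0 h ranges of both genes did not overlap.

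Some genes with RNA left in the dry embryo had smaller differences. Photosystem I antenna gene 6Dg0000018 had 3.69 to 22.9 CPM at 48 h and 0 to 1.66 CPM at 0 h, a log2 difference of 4.41 ± 0.48 (SE, edgeR adjusted p = 4.66e-11). HCF136 gene 6Cg0000008 rose by a log2 difference of 1.49 ± 0.37 (SE, edgeR adjusted p = 3.99e-04). In sum the oxygen-evolving complex went furthest from its starting level, with 172 and 0.20 CPM at 48 and 0 h in CDC Morrison and 159 and 0.369 CPM in AC Morgan, ratios of 860 and 431. For the Rubisco small subunit in CDC Morrison the means were 284 and 6.37 CPM, a ratio of 44.6, and for the chlorophyll a-b binding proteins 560 and 7.63 CPM, a ratio of 73.4.

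Of the 30 tested plastid-encoded type genes 6 were higher and 3 lower at 48 h. Of all tested genes on A, C, D and the unplaced scaffolds, 39.3 to 42.9% were higher and 18.1 to 28.2% lower. The plastid-encoded type was thus called less often than all genes in both directions. CP43, the inner antenna of photosystem II, had 8.42 to 12.003 CPM at 48 h and 2.50 to 4.30 CPM at 0 h at gene 3Ag0001690, a log2 difference of 1.67 ± 0.27 (SE, edgeR adjusted p = 5.16e-07). In the CDC Morrison 48 h library where the nuclear-type genes were low, this gene was not, with 10.8 CPM in replicate 1 and 10.2 and 9.72 CPM in the others.

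In 48 h embryo 4 members were higher and 3 lower in CDC Morrison, against 11.7% of all genes called, 6.23% higher and 5.44% lower. The cultivar difference in 48 h minus 0 h was called for no member by edgeR, with none at an unadjusted p under 0.05, none by DESeq2 and 10 by limma on the normalized values, where edgeR called 1.49% of all genes. There 119 of 185 members had a group with no count, and for 82 the standard error was above 10 on the log2 scale. Of the 7 genes that differed at 48 h, 4 were plastid-encoded type, among them 1Ag0002193 and 7Ag0002293, which differed in grain.

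Endosperm showed little of the rise. Between 48 and 0 h 11 members were higher and 10 lower, against 53.9% of all genes called, 29.0% higher and 24.9% lower. By library size alone 77.8% of the calls were higher, against 52.4% with TMM, and that scaling moved the median of all genes by 0.56 on the log2 scale. At 48 h 158 members were higher and 4 lower in embryo than in endosperm (61.4% of all genes called, 35.8% higher and 25.6% lower), with a median log2 difference of 6.61, or 5.2 with the floor. Here too a gene that passed the filter only through 48 h embryo had to differ, and 97 members had a group with no count. At 0 h 10 members were higher and 8 lower in embryo (38.6% called, 22.5% higher and 16.1% lower), a split that by library size alone was 70.8% higher. The difference of the 48 h minus 0 h change between embryo and endosperm was called for 32 members, 29 with a larger and 3 with a smaller change in embryo, against 34.7% of all genes called, 15.1% with a larger and 19.6% with a smaller change in embryo. For 129 of the 185 members the standard error of this difference was above 10 on the log2 scale, and 147 had a group with no count.

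Among the members whose change differed between the tissues, gene 5Ag0002747, for a reaction center subunit of photosystem I, had a difference of 8.07 ± 0.87 on the log2 scale (SE, edgeR adjusted p = 3.22e-10). Storage genes of the endosperm summed to group means of 91276 to 116587 CPM in endosperm at 0 and 3 h. At 24 and 48 h they summed to 19558 to 32601 CPM in endosperm. In embryo they summed to 5992 and 3913 CPM at 0 h in CDC Morrison and AC Morgan, and to 33.5 to 332 CPM at 24 and 48 h. The dissected tissues were distinct by the storage genes. Between 48 h and 0 h embryo 2 storage genes were higher and 49 lower, and 21 of 32 aleurone marker genes were higher and 11 lower. The embryo marker list of 33 genes tested in grain did not separate the tissues at every time. At 48 h its sums were 158 and 170 CPM in embryo and 88.7 and 73.3 CPM in endosperm of CDC Morrison and AC Morgan. At 0 h the order was reversed, with 142 and 136 CPM in embryo and 189 and 145 CPM in endosperm. At 3 h it was reversed as well, with 162 and 135 CPM in embryo and 186 and 154 CPM in endosperm.

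Calls in grain and embryo were set side by side for each gene. Of 182 genes tested in both experiments 144 were lower in late than in early grain and higher in 48 h than in 0 h embryo, and 5 were higher in late grain and lower in 48 h embryo. Of all 60498 genes tested in both experiments 28.4% had the first pattern and 23.2% the second. Among the 152 nuclear-type genes of this set 141 had the first pattern and 2 the second. Among the 30 plastid-encoded type genes 3 had each pattern, 11 fell in grain without a call in embryo, and 10 had neither call. The libraries of the 2 experiments are separate, and their levels were scaled apart, so levels were set side by side and not tested across them.

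**Figure D5:**
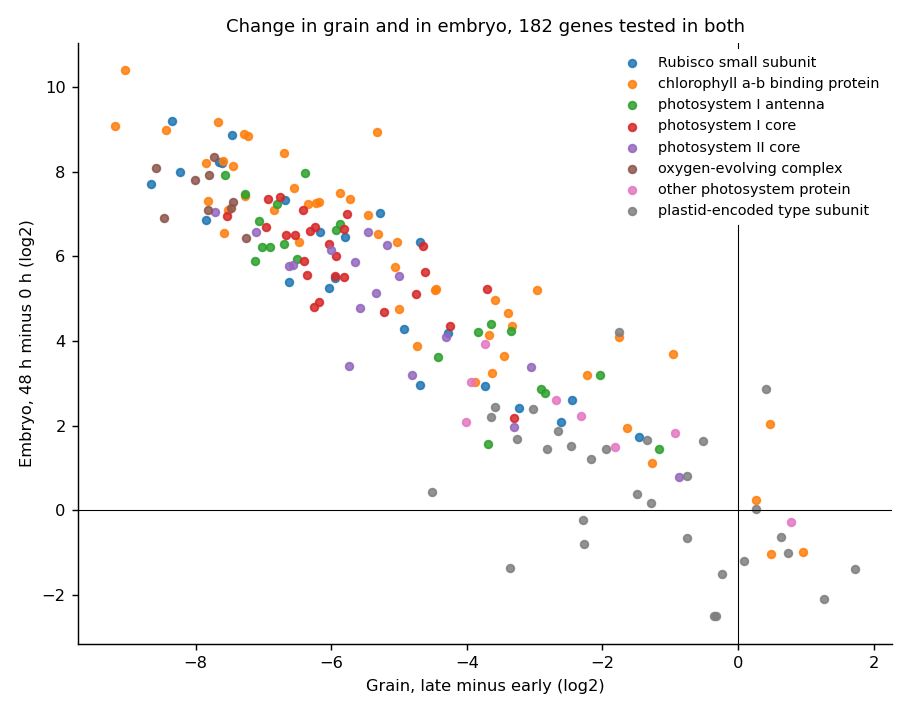
Log2 difference of late minus early grain (horizontal) against 48 h minus 0 h embryo (vertical) for 182 photosynthesis genes tested in both experiments, with groups that had no count set to a floor of 3 counts. Nuclear-type genes lie mostly in the upper left, where 141 were called lower in late grain and higher in 48 h embryo, and plastid-encoded type genes lie near the centre.

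The 5 genes with the opposite pattern were chlorophyll a-b binding protein 7 genes 5Cg0001767 and 5Dg0001729 and plastid-encoded type genes 3Cg0001171, 4Dg0000665 and 6Ag0001439. Gene 3Cg0001171, whose description is photosystem I apoprotein A2 of a cyanobacterium, had 7.34 to 14.1 CPM in late grain (median 12.6) and 1.60 to 5.19 CPM in early grain (median 3.72), with no overlap. Its log2 difference was 1.73 ± 0.09 (SE, edgeR adjusted p = 8.72e-20). In embryo it had 3.61 to 5.63 CPM at 48 h and 10.1 to 14.8 CPM at 0 h, a log2 difference of -1.39 ± 0.15 (SE, edgeR adjusted p = 2.63e-11), while in 48 h endosperm it had 8.87 to 15.1 CPM.

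The chlorophyll a-b binding protein 7 genes changed by less. For 5Dg0001729 the log2 difference was 0.95 ± 0.17 in late against early grain (SE, edgeR adjusted p = 4.45e-06) and -0.97 ± 0.30 in 48 h against 0 h embryo (SE, edgeR adjusted p = 4.57e-03). For 5Cg0001767 these were 0.49 ± 0.15 (SE, edgeR adjusted p = 3.14e-03) and -1.04 ± 0.37 (SE, edgeR adjusted p = 1.26e-02). The grain call of 5Cg0001767 and of 6Ag0001439 depended on the ages compared, since at 40 against 5 DPE the log2 difference was -0.025 and -0.023 (edgeR adjusted p = 0.956 for 5Cg0001767 and 0.964 for 6Ag0001439). The embryo call of 6Ag0001439 was also lost with other scalings, with DESeq2 and limma and without any of 7 of the 12 libraries, with adjusted p between 0.0175 and 0.520 over its alternatives. By library size alone neither contrast of 5Cg0001767 was called, with adjusted p of 0.0987 in grain and 0.0714 in embryo. The third gene annotated with the Arabidopsis protein of this name, 5Ag0002175, was called in neither, at 0.26 ± 0.15 in grain (SE, edgeR adjusted p = 0.109) and 0.24 ± 0.40 in embryo (SE, edgeR adjusted p = 0.612).

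The make-up of the photosynthesis RNA is given side by side for green grain and greening embryo, without a test. The Rubisco small subunit genes held 24.4% of the nuclear-type sum at 10 DPE in CDC Morrison and 20.9% in AC Morgan, and 21.6% and 19.4% in 48 h embryo of the same cultivars. The chlorophyll a-b binding proteins held 31.7% and 29.3% in grain and 35.2% and 40.6% in embryo. The CDC Morrison embryo means include replicate 1, where the members were low. In its replicates 1, 2 and 3 the chlorophyll a-b binding proteins held 27.2%, 38.9% and 39.6%, against 40.5%, 39.1% and 42.3% in AC Morgan embryo. Without replicate 1 the cultivars thus lay close together. The Rubisco small subunit held 26.7%, 21.2% and 16.8% in the same CDC Morrison libraries. The oxygen-evolving complex held 12.3% and 16.6% in grain, and 11.1% and 11.2% in embryo. Genes of the C subgenome held 21.97% and 24.8% of the sum in grain, and 24.0% and 23.4% in embryo, with the rest mostly on A and D. These shares depend on gene length and are comparable between groups only.

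By subgenome, 55 of 64 tested A genes, 38 of 54 C genes, 54 of 59 D genes and 9 of 16 unplaced genes were lower in late grain, against 41.4%, 41.2%, 40.4% and 34.3% of all tested genes of A, C, D and the unplaced scaffolds. In 48 h embryo 57 of 62 A genes, 40 of 50 C genes, 55 of 59 D genes and 4 of 14 unplaced genes were higher, against 40.4%, 39.3%, 40.9% and 42.9% of all tested genes.

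Single families are described by sums over the genes that share a description. Chlorophyll a-b binding protein 1 had 394 and 524 CPM in CDC Morrison libraries at 10 DPE, and 116, 40.01 and 85.6 CPM in those of AC Morgan. In 48 h embryo it had 15.8, 178 and 257 CPM in CDC Morrison, against 169, 148 and 193 CPM in AC Morgan. CP26 and CP29.1 are minor antennae that link the outer antenna to the core of photosystem II. At 10 DPE CP26 averaged 261 ± 18 CPM in CDC Morrison, against 50.6 ± 21 CPM in AC Morgan (SD, n = 2 and 3), and in 48 h embryo 60.02 ± 48.8 and 50.5 ± 1.32 CPM (SD, n = 3 each). CP29.1 averaged 201 ± 51.3 CPM and 38.3 ± 21.6 CPM in the same grain. At 40 DPE no library of either cultivar had a count for CP29.1.

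PsbS, the 22 kDa protein of photosystem II that takes part in photoprotection, averaged 49.5 CPM in CDC Morrison, against 13.9 CPM in AC Morgan grain at 10 DPE, and 5.28 and 6.84 CPM in 48 h embryo. Oxygen-evolving enhancer protein 1 averaged 291 ± 31.5 and 88.9 ± 42.9 CPM at 10 DPE, and 64.4 ± 51.2 and 58.4 ± 8.10 CPM in 48 h embryo. Its companion, enhancer protein 2 (PsbP), averaged 249 ± 19.2 and 59.4 ± 23 CPM at 10 DPE, and 74.8 ± 52.3 and 69.3 ± 1.53 CPM in 48 h embryo (SD, n = 2 and 3 in grain and 3 each in embryo, CDC Morrison before AC Morgan). The wide spread in CDC Morrison embryo came with its low replicate 1.

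Other genes of the photosynthetic pathway, from lists of descriptions outside the 209 genes, were mostly lower in late grain and higher in 48 h embryo. In late grain 27 of 35 tested Calvin cycle genes were lower and 5 higher, 36 of 46 electron transport genes were lower and 1 higher, 31 of 41 chlorophyll synthesis genes were lower and 8 higher, and 18 of 26 photorespiration genes were lower and 6 higher. Their median log2 differences were -2.81, -3.41, -1.49 and -1.45, against -0.12 over all genes. In 48 h embryo 26 of 36 Calvin cycle genes were higher and 4 lower, 29 of 43 electron transport genes were higher and 1 lower, 34 of 41 chlorophyll synthesis genes were higher and 3 lower, and 17 of 26 photorespiration genes were higher and 5 lower. Their median log2 differences were 4.27, 2.44, 1.63 and 2.06, against 0.31 over all genes, and 2.73 for the Calvin cycle with empty groups at the floor. The shares of all genes called in these contrasts were 76.8% and 67.9%.

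Lists of breakdown and regulation showed no such one-sided loss. In late grain 18 of 33 chlorophyll breakdown genes were higher and 10 lower, and of 59 light regulators 30 were higher and 15 lower, with medians of 0.48 and 0.38. In 48 h embryo 11 of 31 breakdown genes were higher and 14 lower, and of 62 light regulators 24 were higher and 22 lower, with medians of -0.36 and 0.06. Of all tested genes on A, C and D, 35.5 to 36.4% were higher and 40.4 to 41.4% lower in late grain. For the embryo contrast these shares were 39.3 to 40.9% and 27.5 to 28.2%. The shares of breakdown genes and light regulators that were higher in embryo lay near those of all genes. The shares that were lower lay above those of all genes, more so for the breakdown genes. The machinery that imports proteins into the chloroplast had 12 of 50 genes higher and 32 lower in late grain (median -0.36), and 26 of 49 higher and 12 lower in 48 h embryo (median 0.52). Gene 3Dg0000137, for a probable NYC1, an enzyme that starts chlorophyll b breakdown, had 11.4 to 32.0 CPM in late grain (median 20.5) and 3.93 to 26.6 CPM in early grain (median 11.8), a log2 difference of 0.95 ± 0.13 (SE, edgeR adjusted p = 6.97e-08). COP1, which targets light-signalling factors for breakdown in darkness, had 12.4 to 71.0 CPM in late grain and 7.99 to 12.5 CPM in early grain at gene 6Dg0001441, a log2 difference of 1.94 ± 0.08 (SE, edgeR adjusted p = 3.29e-22). The lowest late value thus lay just below the highest early one.

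In single genes of the pathway the ranges were often apart. A transketolase gene, 6Ag0002988, had 43.0 to 264 CPM in late grain (median 143) and 1.46 to 11.2 CPM in early grain (median 2.51), a log2 difference of 5.43 ± 0.20 (SE, edgeR adjusted p = 4.15e-23), and so ran against most Calvin cycle genes. In embryo the same gene had 3.37 to 71.5 CPM at 48 h and 81.0 to 194 CPM at 0 h. Its description, like that of the other Calvin cycle genes counted here, is of a chloroplast enzyme. Gene 3Cg0002231, for the glycine dehydrogenase of photorespiration, had 5.51 to 20.8 CPM in late grain and 35.2 to 94.8 CPM in early grain, a log2 difference of -3.02 ± 0.13 (SE, edgeR adjusted p = 6.30e-22). A glycolate oxidase gene, 4Ag0001721, had 25.0 to 98.4 CPM in 48 h embryo and 2.46 to 7.04 CPM in 0 h embryo, a log2 difference of 4.03 ± 0.44 (SE, edgeR adjusted p = 5.71e-11).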

How the data were processed

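RNA was sequenced in 48 libraries of developing grain and 60 of embryo and endosperm. Per the submitters' notes and the study's methods, poly(A) RNA was sequenced single-end and strand-specifically, and FastQC, Trim Galore, Bowtie2 against ribosomal sequences, and Salmon against the oat OT3098 v2 gene models were applied. No source used here gives their versions. The estimated counts per gene were made by the authors with Salmon and tximport and were rounded to whole numbers here. The deposited normalized tables, which hold 61478 and 61140 genes, are log2-scale variance-stabilized values that the authors made with DESeq2. Salmon shares reads among similar sequences by estimate, so near-identical A, C and D copies are uncertain one by one.

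A gene was tested in an experiment if 5% or more of its libraries had 5 or more counts for it. One model per experiment, with a term for each of the 16 grain or 20 germination groups, was fitted with edgeR 4.0.16 in R 4.3.3 (TMM, quasi-likelihood test), and p-values were adjusted over all genes by the Benjamini-Hochberg method with a threshold of 0.05. Depth per library is given with the results; TMM leaves CPM relative to the bulk of genes. A group with no count was set to a floor of 3 counts over the group where a bound is given, and floors cover counting error only. Nothing in the labels says that germination replicates came from separate plants, so their p-values measure the spread between these samples, which may be technical. No batch is named in the labels.

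Alternatives were RLE or library-size scaling, other filters, a replicate block, leaving out each library, DESeq2 1.42.0, limma 3.58.1 on the deposited log2 values, other ages, all 48 grain libraries, and counts summed by description. The scripts were tested on simulated counts, whose spread was set and not taken from these data, with 100 changed genes of each size. For 48 h minus 0 h embryo 6% of log2 changes of 1 and 82% of 2 were recovered. For late minus early grain 72% and 100% were. The study's own test, a 2-way analysis of the normalized values by cultivar and time, was replaced by the count model because counts were deposited. Named genes were, for each role, the 3 members with the highest mean CPM in grain and in embryo, up to 5 called against the majority, up to 5 called in the cultivar contrasts, and up to 3 called genes of each pathway list. Gene 5Ag0002747 and the share of 2Cg0001318 fall outside that rule and were chosen after their values were seen. The members and lists were chosen with earlier results of these data known, and the description patterns of the pathway and marker lists were trimmed by name once the files had been opened.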

Additional observations from a re-analysis of the deposited data

Results flagged for a closer look

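The change from early to late grain differed between CDC Morrison and AC Morgan for 16 photosynthesis genes by the interaction term of the edgeR model, where 14.2% of all genes were called. DESeq2 called 54 photosynthesis genes and limma on the deposited values 91. Of the named genes among them, Rubisco small subunit gene 5Dg0003142 differed by -3.61 on the log2 scale, CDC Morrison minus AC Morgan, and chlorophyll a-b binding protein 1B gene 5Cg0000279 by -3.17, both with counts in every group. Photosystem II reaction center W protein genes 4Ag0002953 and 3Cg0002801 differed by -4.32 and -4.11, and photosystem I subunit VI gene 1Ag0003510 by -3.30, but groups with no count make these fitted values no bound. The call of 5Dg0003142 was lost without replicate 3 of AC Morgan at 40 DPE (-2.74, edgeR adjusted p = 0.354), and that of 4Ag0002953 without replicate 3 of AC Morgan at 35 DPE (-3.22, edgeR adjusted p close to 1).

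The change from 0 h to 48 h differed between embryo and endosperm for 32 photosynthesis genes by the interaction term, where 34.7% of all genes were called. DESeq2 called 76 and limma 158. Replicate 1 of CDC Morrison grain at 10 DPE, which no fit used, gave 0.284% of its counts to the photosynthesis genes.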

How the results depend on the processing

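All counts here are of photosynthesis genes called at an adjusted p under 0.05, and the cause of a change with a setting was not tested unless named. Scaling by RLE or library size, the filters on low counts and the addition of the low 10 DPE library left the 15 counts for whole comparisons within 1.5 times, as did other ages for late minus early grain. Counts summed by description gave 52 calls in late minus early grain and 46 in 48 h minus 0 h embryo, of descriptions and not of genes. DESeq2 called 54 for the cultivar difference in late minus early (16 by edgeR), 79 for the cultivars over 8 times (29), 100 for 48 h minus 0 h embryo (161), 76 for the embryo and endosperm difference in that change (32), 95 for embryo minus endosperm at 48 h (162), 4 for the cultivars in 48 h embryo (7) and 110 over the embryo steps (219). Limma on the deposited log2 values called 91, 79, 158 and 26 for the same cultivar difference, cultivars over 8 times, tissue difference and cultivars in 48 h embryo, and 34 for endosperm 48 h minus 0 h (21) and 10 for the cultivar difference in embryo (0).

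At single times, DESeq2 gave 4, 65 and 1 calls at the 20, 35 and 40 DPE steps (0, 20 and 0 by edgeR), 8 between cultivars at 35 DPE (4) and 62 at the 48 h embryo step (153). Limma gave 1 and 66 at the 20 and 35 DPE steps, and 17, 19, 118 and 57 between cultivars at 5, 15, 20 and 25 DPE (10, 7, 63 and 31). The filterByExpr filter gave 1 at the 20 DPE step, and library size alone 11 between cultivars at 15 DPE. By library size alone 75.0% of the calls at the 6 h embryo step were higher, against 2 of 4 with TMM.

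At 40 minus 5 DPE gene 6Ag0001439 turned to -0.023 and gene 5Cg0001767 to -0.025 on the log2 scale, and with all 48 grain libraries Ung0000558 turned to 5.11 between cultivars at 10 DPE (-0.33 without the low library).

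Leaving out each library in turn gave 159 to 163 for late minus early grain, 157 to 162 for CDC Morrison alone, 164 to 170 for AC Morgan alone, 11 to 18 for the cultivar difference, 23 to 31 for the cultivars over 8 times, 381 to 460 for the grain steps together, 289 to 353 for the cultivars at each time together. In germinating grain it gave 158 to 163 for 48 h minus 0 h embryo, 18 to 24 for 48 h minus 0 h endosperm, 23 to 36 for the tissue difference in that change, 15 to 19 for embryo minus endosperm at 0 h, 158 to 164 for embryo minus endosperm at 48 h, 6 to 8 for the cultivars in 48 h embryo, 203 to 238 for the embryo steps together, and 0 throughout for the cultivar difference in embryo.

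Deviations of samples with the same replicate number correlated at -0.33 to 0.36 over 23 grain pairs (2 over 0.1) and at -0.17 to 0.42 over 30 germination pairs (10 over 0.1), and the numbers were not taken to pair the samples. In germination 23 of 30 correlated best with their own number, a hint of pairing from the data alone, against 6 of 23 in grain. With the replicate number as a block, 162 genes were called in late minus early grain and 163 in 48 h minus 0 h embryo, and no call of a named gene changed. The block was a shift shared by all groups. It could not represent a pairing of embryo and endosperm within a cultivar and time, which was not tested.

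Depth limits the ripe grain and dry embryo, where many genes had no count, so that their differences are bounds.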
